A study of Mus musculus with 7 samples.

Results

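Microglia, macrophages and leukocytes are set apart from the other cells of the brain by genes that those cells use and most neural cells do not, and 41 such genes are described here in sorted mouse glioma cells. The genes were taken as a named list from the 12393 genes for which the arrays held a probe set that names that gene alone. The list was chosen with earlier results of these data known, and all its genes were kept whatever their values. All 41 were on the array, with Emr1, a surface receptor used to mark mouse macrophages, listed under its newer symbol Adgre1. They fall into 5 genes of resident microglia, 17 genes shared by microglia and macrophages, 6 genes of monocytes and recruited macrophages and 13 genes of leukocytes in general.

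The tumours were PDGFB-driven gliomas. RCAS, an avian retroviral vector, carried PDGFB and the green fluorescent protein GFP into the brains of mice injected on postnatal days 1 to 3, and it enters only cells that carry its receptor tv-A, which the Nestin promoter drives in neural progenitors. The genotypes compared all shared one feature, the loss of p16 (p16-/-), on a mixed background of the strains C57/BL6 and FVB/N. They were Ptprd-/-p16-/- tumours (null, 3 arrays), Ptprd+/-p16-/- tumours (heterozygous, 2 arrays) and Ptprd+/+p16-/- tumours (wild type, 2 arrays). Ptprd encodes a receptor tyrosine phosphatase. Tumours were collected when mice had symptoms or at 12 weeks after injection, and the labels do not give the time for each array. They were dissected under fluorescence and digested with papain, and cells positive for GFP and negative for DAPI, a dye that enters dead cells, were sorted. The labels call the arrays biological replicates and do not say that each came from 1 mouse, so the p-values below measure the spread between these arrays.

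Microglia are the resident macrophages of the brain. They depend on the receptor CSF1R and on the transcription factor PU.1, the product of Spi1, and they survey the tissue with receptors such as CX3CR1 and P2RY12. In gliomas they are joined by macrophages that arise from blood monocytes, and both kinds of cell share most of their genes for complement, Fc receptors and lysosomal enzymes. A sort for GFP is meant to keep tumour cells, and these genes are listed here as markers of other cells. Which cells in the sorted samples carried their RNA was not tested. In bulk RNA, fewer cells of a type and less RNA per cell cannot be told apart.

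Values are log2 levels of the probe set that was brightest on average, as deposited after RMA, a method that corrects background and sets the arrays to 1 distribution. Array medians lay between 6.63 and 6.72. The 9 genes of the oligodendrocyte progenitor list, a cell type that PDGF-driven gliomas resemble, all passed the filter on dim genes, which asks for a level above the array's 30th percentile (4.82 to 4.95) on at least 2 arrays. Ptprd itself was at 9.61, 8.95 and 9.93 on the null arrays, 9.42 and 9.57 on the heterozygous arrays and 10.86 and 10.89 on the wild-type arrays, with a difference of 0.00 between null and heterozygous means. Where the probe set lies relative to the deleted part is not given in the sources used here. Heterozygous replicate 1 and null replicate 1 carried both Xist and Y-linked transcripts. Wild-type replicate 1 and null replicate 2 carried the Y-linked ones with Xist near the level of dim genes, and the other arrays carried Xist alone.

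Many immune-cell genes were higher in heterozygous tumours than in wild-type tumours, and none passed the test in null tumours against wild type. Of the 41 genes, 31 passed the filter on dim genes. In heterozygous against wild type, 19 of the 31 rose and 0 fell in limma's moderated test with Benjamini-Hochberg adjustment over 9243 genes at a threshold of 0.05. Over all genes tested, 4.2% rose and 5.95% fell. The median difference of the 31 was 1.17 on the log2 scale, with a range from -0.29 to 2.13, against a median of -0.04 over all genes. In null against wild type, 0 of the 31 passed the test, as did 0% of all genes, and 3 of the 31 had an unadjusted p under 0.05, against 5.14% of all genes. The median difference of the 31 was 0.13 there. In null against heterozygous, 13 of the 31 were lower in null (3.96% of all genes) and 0 were higher (5% of all genes), with a median of -1.04 against 0.04 over all genes. All 13 were among the 19 that rose in heterozygous tumours. Both comparisons use the same heterozygous arrays, so this overlap is not separate support. The F test, which asks for any difference among the genotypes, called 11 of the 31, against 5.65% of all genes.

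**Figure D1:**
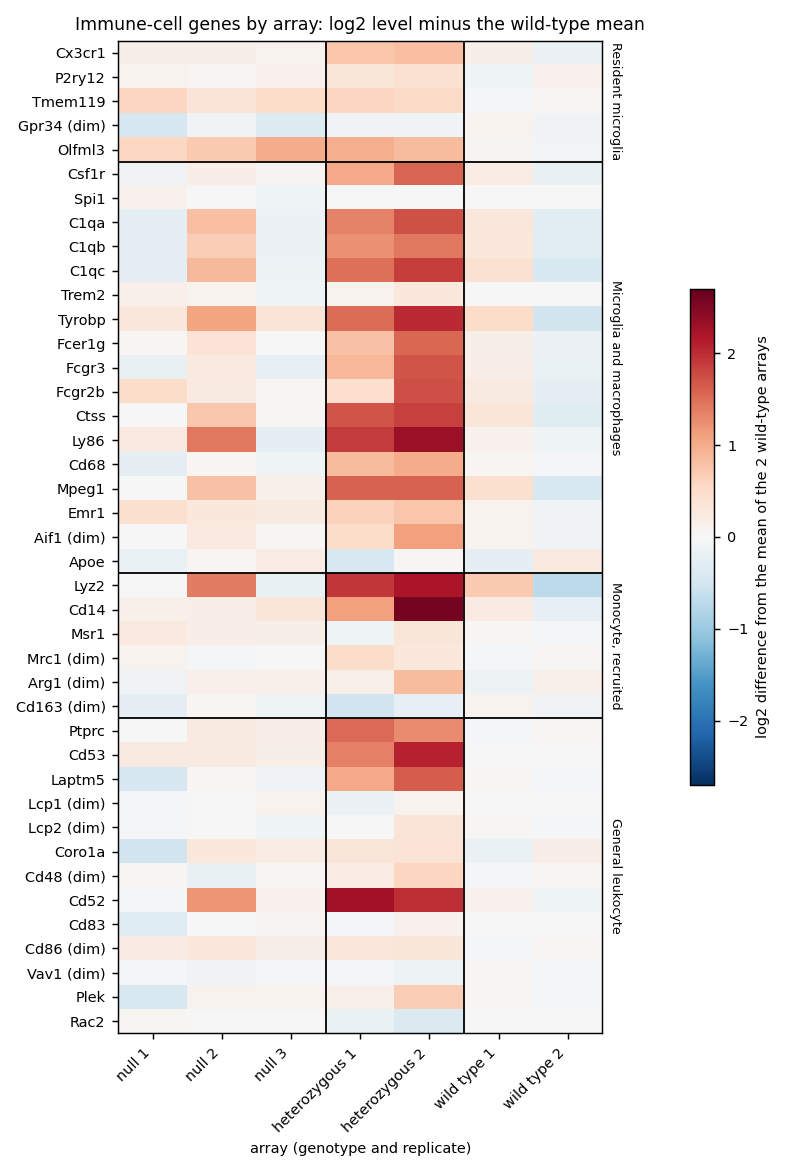
Level of each of the 41 genes on each array, as the log2 difference from the mean of the 2 wild-type arrays (red higher, blue lower), with genes grouped by role and arrays by genotype. Genes marked dim did not pass the filter. The heterozygous columns are red for most genes of microglia and macrophages, and null replicate 2 is redder than the other null arrays for the complement genes, Tyrobp, Ly86, Lyz2 and Cd52.

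The median level of the 31 tested genes was 5.49, 6.002 and 5.43 on the null arrays, 6.54 and 6.91 on the heterozygous arrays and 5.58 and 5.27 on the wild-type arrays, so both heterozygous arrays lay above the other 5. The 3 genes Ptprc, Cd68 and Cd14 passed the filter only through the heterozygous arrays, and a count over tested genes favours such genes. Without the filter, 16 of 41 rose in heterozygous against wild type (2.76% of all genes) and 9 of 41 were lower in null than in heterozygous (2.22% of all genes). Also without the filter, both heterozygous arrays lay above both wild-type arrays for 30 of 41 genes (25.1% of all genes). All null arrays lay below both heterozygous arrays for 26 of 41 (15% of all genes), and all null arrays lay above both wild-type arrays for 6 of 41 (12.4% of all genes). The calls rest on few arrays. Leaving out a wild-type or heterozygous array leaves 1 array in that group. The same holds for heterozygous replicate 1 and null replicate 1 left out together. Calls became fewer in each of these fits, among the 31 genes and over all genes tested alike. In these fits the median difference of heterozygous against wild type stayed between 0.89 and 1.43. Without null replicate 1 or 3 the count of 13 became 4. Over all genes tested, 290 and 205 were then called in either direction, against 828 with all arrays.

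Among the genes of resident microglia, 3 of the 4 tested rose in heterozygous tumours (Cx3cr1, Tmem119 and Olfml3), with a median difference of 0.67 over the 4. Cx3cr1, the receptor for the neuronal chemokine fractalkine, was at 5.50, 5.50 and 5.43 on the null arrays, 6.08 and 6.16 on the heterozygous arrays and 5.49 and 5.19 on the wild-type arrays. Both heterozygous arrays were above the rest, and null and wild type overlapped. Cx3cr1 rose by 0.78 ± 0.13 (SE) in heterozygous against wild type (1.72-fold, limma adjusted p = 0.0172) and was lower in null than in heterozygous (log2 difference -0.64, adjusted p = 0.0253).

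Tmem119 and Olfml3 were ordered differently across the genotypes. Tmem119, a surface protein used as a microglial marker, was at 5.03, 4.80 and 4.94 on the null arrays, 5.04 and 4.98 on the heterozygous arrays and 4.42 and 4.48 on the wild-type arrays. Olfml3, a secreted protein of microglia, was at 6.45, 6.61 and 6.91 on the null arrays, 6.88 and 6.76 on the heterozygous arrays and 5.97 and 5.83 on the wild-type arrays. For both genes every null and heterozygous array lay above both wild-type arrays, and null and heterozygous overlapped. The wild-type levels of Tmem119 were below the 30th percentile. They rose in heterozygous against wild type, Tmem119 by 0.56 ± 0.11 (adjusted p = 0.0304) and Olfml3 by 0.92 ± 0.16 (adjusted p = 0.0214). In null against wild type the differences were 0.48 for Tmem119 (95% interval 0.23 to 0.72) and 0.76 for Olfml3 (0.40 to 1.11), with an adjusted p of 0.882 for each, a comparison in which none of the 9243 genes passed. Null minus heterozygous was -0.08 for Tmem119 (-0.33 to 0.16) and -0.16 for Olfml3 (-0.51 to 0.19).

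P2ry12, the receptor by which microglia sense ADP, was at 4.96, 4.92 and 4.99 on the null arrays, 5.19 and 5.28 on the heterozygous arrays and 4.75 and 4.99 on the wild-type arrays. It did not pass the test in heterozygous against wild type (0.37 ± 0.12, adjusted p = 0.0901), although both heterozygous arrays were the highest. These levels lay close to the dim range. Gpr34, a lysophosphatidylserine receptor, was dim, with 3.70 on 4 of the 7 arrays. Values repeated to the last digit occur in this table: 5.17% of all genes and 5 of the 41 held the same value on at least 4 arrays.

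**Figure D2:**
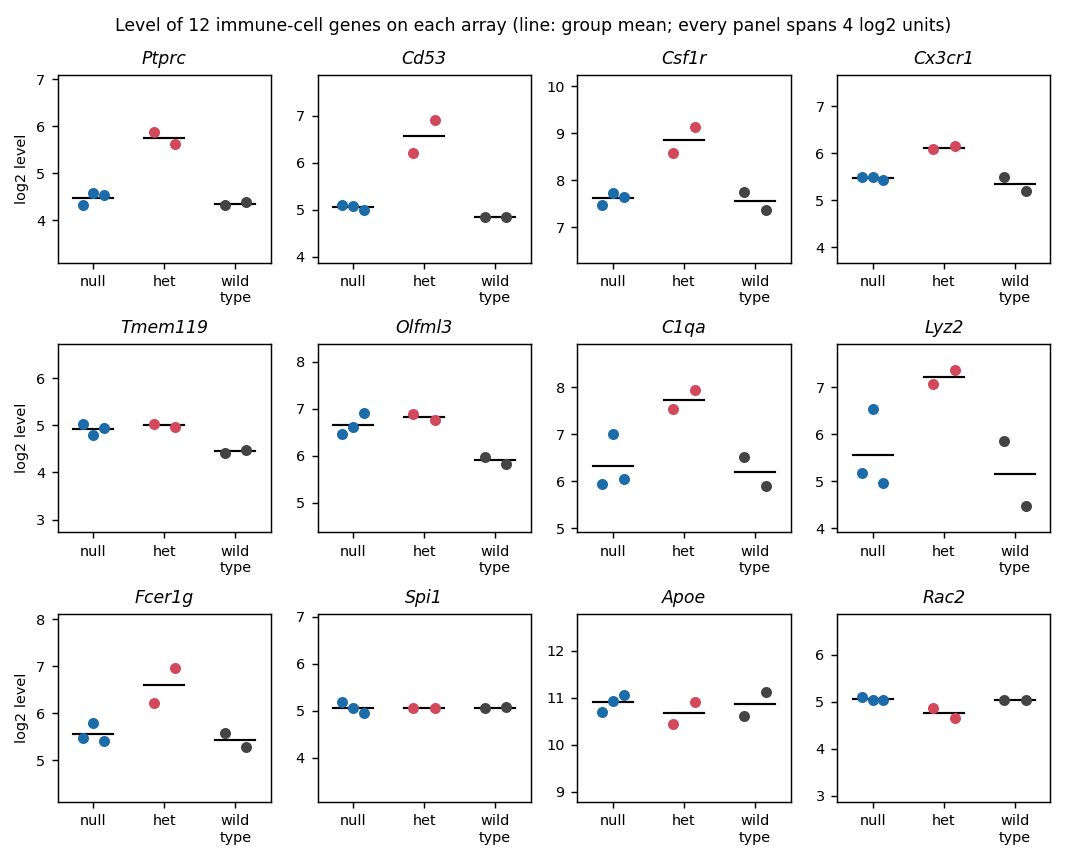
Log2 level of 12 of the genes on each array, with null arrays at the left, heterozygous arrays (het) in the middle and wild-type arrays at the right. Points are arrays, lines are group means, and every panel spans 4 log2 units. Ptprc, Cd53 and Csf1r are high on the heterozygous arrays only, Tmem119 and Olfml3 are lowest on the wild-type arrays, and Spi1 and Apoe show overlapping groups.

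Of the genes shared by microglia and macrophages, 11 of the 16 tested rose in heterozygous tumours (median 1.29) and 7 of the 16 were lower in null than in heterozygous. Csf1r, the receptor that keeps these cells alive, was at 7.48, 7.74 and 7.65 on the null arrays, 8.58 and 9.13 on the heterozygous arrays and 7.76 and 7.38 on the wild-type arrays. Both heterozygous arrays stood above the others, and the 3 null arrays lay between the 2 wild-type arrays. Csf1r rose 2.44-fold in heterozygous against wild type (log2 difference 1.29 ± 0.21, adjusted p = 0.0174), and its null-minus-heterozygous difference was -1.23 (adjusted p = 0.0165).

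Spi1, the gene of PU.1, did not pass the test in any comparison. It was at 5.19, 5.06 and 4.94 on the null arrays, 5.06 and 5.06 on the heterozygous arrays and 5.06 and 5.07 on the wild-type arrays. The 95% interval of its heterozygous-minus-wild-type difference ran from -0.28 to 0.26 log2 units. These levels lay close to the 30th percentile of the arrays (4.82 to 4.95), and 4 arrays carried the identical value of 5.06. From a probe set so near the dim range, the interval cannot bound a change of Spi1. Trem2, a lipid-sensing receptor of the same cells, also did not pass the test (0.19, adjusted p = 0.345), with 4.91, 4.89 and 4.67 on the null arrays, 4.89 and 5.07 on the heterozygous arrays and 4.78 and 4.79 on the wild-type arrays. Trem2 was above the 30th percentile on only 2 arrays, so this result cannot bound a change of it either.

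PU.1 reads a purine-rich ETS box, and its core letters GAGGAA were searched on both strands (TTCCTC on the other) in the 250 bases before each RefSeq start on GRCm38.p6. The table held promoters of 27 of the 41 genes, and 14 of the 27 (51.9%) had a match, against 25.9% of 27025 genes. Among the 19 genes that rose in heterozygous tumours, 12 had a promoter in the table and 7 of these had a match. A match is a description of letters and not a binding site. The sequences below are examples from the genes that rose in heterozygous tumours and were lower in null tumours, so nothing is read from their share with a match. C1qb, Fcgr3 and Laptm5, with a match, and Fcer1g and Mpeg1, without one, did the same and are not shown. Shown are Ctss (chr3:95526536-95526785, plus strand, match starting 164 bases before the start), Cd68 (chr11:69666171-69666420, minus strand, 225 bases) and Cd53 (chr3:106790150-106790399, minus strand, 39 bases). Also shown are Ptprc at the first of its 2 listed starts (chr1:138175306-138175555, minus strand, 158 bases, with no match at the second start) and Cx3cr1 (chr9:120068297-120068546, minus strand, no match). Each is printed 5′ to 3′ on the strand of its gene, with the match in capitals.
Ctss: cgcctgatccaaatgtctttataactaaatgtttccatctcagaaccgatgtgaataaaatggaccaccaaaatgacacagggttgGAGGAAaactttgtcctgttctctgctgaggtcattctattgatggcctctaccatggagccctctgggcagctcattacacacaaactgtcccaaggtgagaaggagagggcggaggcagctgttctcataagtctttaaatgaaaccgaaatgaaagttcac
Cd68: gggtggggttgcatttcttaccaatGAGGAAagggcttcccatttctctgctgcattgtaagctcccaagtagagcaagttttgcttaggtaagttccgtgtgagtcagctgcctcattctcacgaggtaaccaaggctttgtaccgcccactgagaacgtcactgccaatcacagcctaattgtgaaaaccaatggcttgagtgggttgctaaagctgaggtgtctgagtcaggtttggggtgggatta
Cd53: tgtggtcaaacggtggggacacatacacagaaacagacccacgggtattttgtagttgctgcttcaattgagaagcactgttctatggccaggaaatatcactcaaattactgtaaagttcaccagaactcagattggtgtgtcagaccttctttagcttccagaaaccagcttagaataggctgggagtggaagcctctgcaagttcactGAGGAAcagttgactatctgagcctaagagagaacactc
Ptprc: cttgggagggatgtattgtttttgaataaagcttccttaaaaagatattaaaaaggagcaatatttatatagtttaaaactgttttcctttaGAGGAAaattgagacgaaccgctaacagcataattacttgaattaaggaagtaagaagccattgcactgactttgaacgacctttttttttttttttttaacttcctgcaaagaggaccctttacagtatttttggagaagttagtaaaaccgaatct
Cx3cr1: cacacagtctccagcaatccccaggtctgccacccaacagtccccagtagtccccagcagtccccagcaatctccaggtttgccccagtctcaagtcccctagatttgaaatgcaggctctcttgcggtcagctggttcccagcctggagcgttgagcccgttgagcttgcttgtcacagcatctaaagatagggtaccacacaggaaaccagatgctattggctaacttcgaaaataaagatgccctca

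The complement genes C1qa, C1qb and C1qc encode the chains of C1q, which tags debris and synapses for uptake. C1qa was at 5.95, 7.02 and 6.05 on the null arrays, 7.54 and 7.94 on the heterozygous arrays and 6.51 and 5.91 on the wild-type arrays. C1qb was at 6.42, 7.36 and 6.54 on the null arrays, 7.92 and 8.12 on the heterozygous arrays and 6.97 and 6.41 on the wild-type arrays. C1qc was at 4.89, 6.002 and 4.997 on the null arrays, 6.61 and 6.995 on the heterozygous arrays and 5.55 and 4.71 on the wild-type arrays. The heterozygous arrays were highest for all 3 genes, and null replicate 2 was well above the other null arrays. In heterozygous against wild type C1qa rose by 1.53 ± 0.38 (adjusted p = 0.0494) and C1qb by 1.33 ± 0.33 (adjusted p = 0.0489), both just inside the threshold, while C1qc differed by 1.68 ± 0.42 (adjusted p = 0.05004) and lay just outside it. C1qb alone of the 3 passed in null against heterozygous (-1.25, adjusted p = 0.0489).

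Of the Fc receptor genes and their adaptors, Fcgr3, Fcer1g and Tyrobp rose in heterozygous tumours. Fcgr3, a receptor for IgG, was at 5.57, 6.03 and 5.55 on the null arrays, 6.66 and 7.46 on the heterozygous arrays and 5.94 and 5.59 on the wild-type arrays. Fcer1g, the signalling chain that Fc receptors share, was at 5.48, 5.80 and 5.41 on the null arrays, 6.22 and 6.97 on the heterozygous arrays and 5.58 and 5.27 on the wild-type arrays. In both, heterozygous replicate 2 was the highest array and null and wild type overlapped. Fcgr3 rose 2.45-fold (1.29 ± 0.29, adjusted p = 0.038) and Fcer1g 2.25-fold (1.17 ± 0.26, adjusted p = 0.0376) in heterozygous against wild type, and both were lower in null than in heterozygous (-1.34, adjusted p = 0.0303, and -1.03, adjusted p = 0.0434). Tyrobp, the adaptor DAP12 through which TREM2 signals, was at 5.77, 6.55 and 5.85 on the null arrays, 7.01 and 7.51 on the heterozygous arrays and 5.99 and 4.999 on the wild-type arrays. Tyrobp rose by 1.76 ± 0.39 (adjusted p = 0.0361), and its null-minus-heterozygous difference of -1.20 did not pass (adjusted p = 0.0761).

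Fcgr2b, the inhibitory Fc receptor, depended on the probe set. Its brightest probe set gave 7.57, 7.32 and 7.13 on the null arrays, 7.52 and 8.81 on the heterozygous arrays and 7.32 and 6.83 on the wild-type arrays, and did not pass (1.09 ± 0.40, adjusted p = 0.12). Only heterozygous replicate 2 stood above all null and wild-type arrays there. Its 3 other probe sets had heterozygous-minus-wild-type differences of 3.99, 2.11 and 2.11. On heterozygous replicates 1 and 2 they were at 7.09 and 9.55, 6.70 and 8.95, and 5.88 and 8.55. Replicate 2 was thus far higher than replicate 1 on each. The probe set with 3.99 was above the 30th percentile on only 3 arrays.

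Ctss, Cd68 and Mpeg1, genes of lysosomes and phagosomes, rose in heterozygous against wild type. Ctss, the cathepsin that trims the MHC class II invariant chain, was at 7.79, 8.52 and 7.81 on the null arrays, 9.49 and 9.64 on the heterozygous arrays and 8.11 and 7.46 on the wild-type arrays. It rose 3.44-fold (1.78 ± 0.30, adjusted p = 0.018) and was lower in null than in heterozygous (-1.52, adjusted p = 0.0245). Cd68, a glycoprotein of macrophage lysosomes, was at 4.39, 4.71 and 4.53 on the null arrays, 5.50 and 5.66 on the heterozygous arrays and 4.71 and 4.60 on the wild-type arrays. Only the heterozygous arrays were above the 30th percentile, so its rise of 0.93 ± 0.14 (adjusted p = 0.0129) is measured from a dim level. Mpeg1, the pore-forming perforin-2, rose by 1.59 ± 0.34 (adjusted p = 0.0328), with 5.80, 6.61 and 5.95 on the null arrays, 7.41 and 7.41 on the heterozygous arrays and 6.24 and 5.39 on the wild-type arrays. Ctss, Cd68 and Mpeg1 all had heterozygous arrays clear of the rest.

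Ly86, which encodes MD-1, the partner of the receptor RP105, differed by 2.11 ± 0.48 in heterozygous against wild type (4.32-fold, adjusted p = 0.0412). It was at 6.34, 7.52 and 5.84 on the null arrays, 7.97 and 8.42 on the heterozygous arrays and 6.19 and 5.98 on the wild-type arrays, so null replicate 2 came closest to the heterozygous level. Emr1 rose by 0.68 ± 0.12 (adjusted p = 0.0214), with 5.80, 5.65 and 5.61 on the null arrays, 5.98 and 6.11 on the heterozygous arrays and 5.45 and 5.28 on the wild-type arrays. Its null arrays lay between the other groups without overlap, with a null-minus-wild-type difference of 0.32 (95% interval 0.06 to 0.58, unadjusted p = 0.0233, adjusted p = 0.882). Aif1, the actin-bundling protein IBA1, was dim, with 4.23, 4.51 and 4.28 on the null arrays, 4.75 and 5.36 on the heterozygous arrays and 4.33 and 4.16 on the wild-type arrays. Apoe, a lipid carrier that astrocytes also make in quantity, had overlapping groups at 10.70, 10.93 and 11.06 on the null arrays, 10.45 and 10.90 on the heterozygous arrays and 10.62 and 11.12 on the wild-type arrays (heterozygous minus wild type -0.20, 95% interval -0.73 to 0.34).

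**Figure D3:**
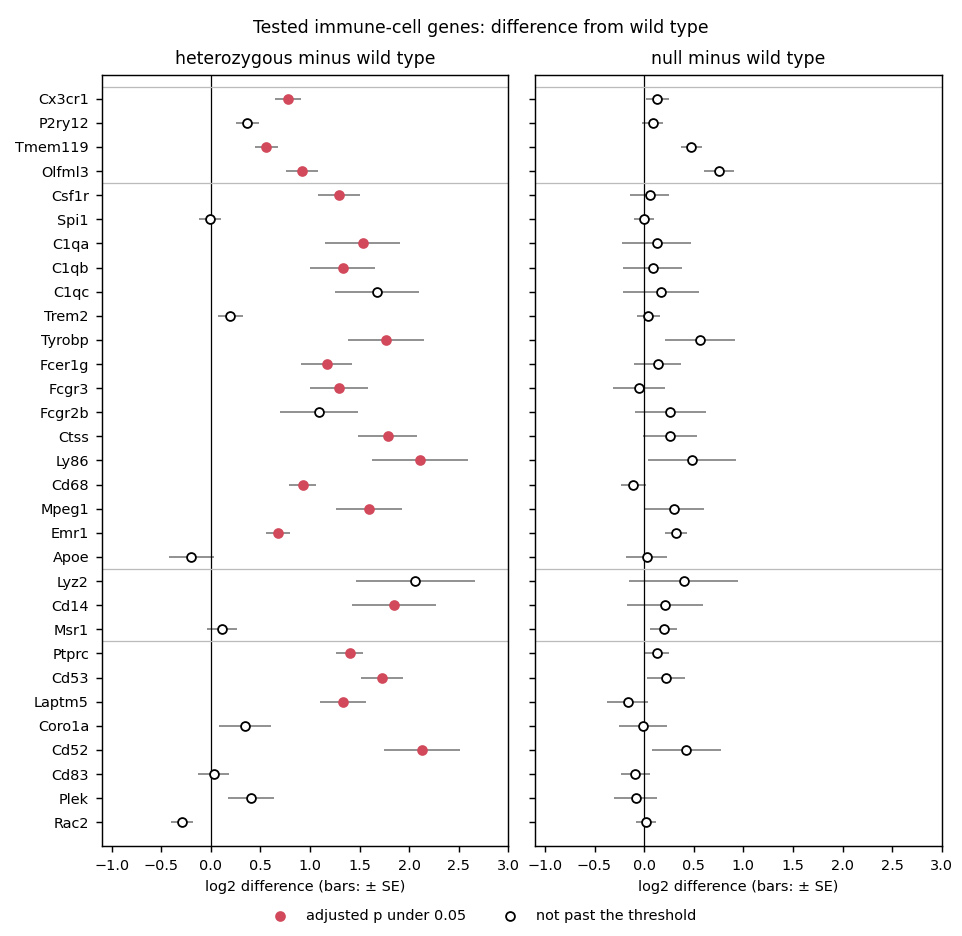
Log2 difference from wild type of the 31 tested genes, heterozygous minus wild type at the left and null minus wild type at the right, with bars of 1 SE and filled points for an adjusted p under 0.05. The heterozygous panel holds 19 filled points, all to the right of 0, and the null panel holds 0, with Olfml3 farthest to the right at 0.76.

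Of the genes of monocytes and recruited macrophages, 3 of 6 were tested and 1 rose. Cd14, the co-receptor for lipopolysaccharide, was at 4.30, 4.35 and 4.48 on the null arrays, 5.28 and 6.74 on the heterozygous arrays and 4.38 and 3.94 on the wild-type arrays. Cd14 passed the filter only through the heterozygous arrays, and its null and wild-type levels were all below the 30th percentile. From those dim levels it rose by 1.85 ± 0.42 in heterozygous against wild type (adjusted p = 0.0403) and was lower in null than in heterozygous (-1.63, adjusted p = 0.0456). Among the brightest probe sets of the 41 genes, the heterozygous arrays differed most from each other for Cd14. Lyz2, lysozyme M, was at 5.17, 6.55 and 4.97 on the null arrays, 7.08 and 7.37 on the heterozygous arrays and 5.86 and 4.46 on the wild-type arrays. The heterozygous arrays were highest, yet the spread within null and within wild type was wide and the difference of 2.06 ± 0.60 did not pass (adjusted p = 0.0727). Msr1, a scavenger receptor, had a difference of 0.11 (adjusted p = 0.672), with both wild-type levels below the 30th percentile. Mrc1, Arg1 and Cd163, which mark macrophages with repair or perivascular features, were dim on all 7 arrays. Mrc1 was at 3.55, 3.41 and 3.46 on the null arrays, 3.96 and 3.76 on the heterozygous arrays and 3.43 and 3.50 on the wild-type arrays. Arg1, arginase 1, held 3.22 on 4 arrays and reached 3.92 on heterozygous replicate 2 alone. Cd163 ran the other way, with 4.28, 4.59 and 4.42 on the null arrays, 4.02 and 4.33 on the heterozygous arrays and 4.63 and 4.45 on the wild-type arrays.

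Of the general leukocyte genes, 4 of the 8 tested rose in heterozygous tumours. The same 4 were lower in null than in heterozygous, a comparison that shares the heterozygous arrays. Ptprc, the phosphatase CD45 carried by all leukocytes, was at 4.33, 4.58 and 4.53 on the null arrays, 5.88 and 5.62 on the heterozygous arrays and 4.32 and 4.38 on the wild-type arrays. Ptprc too passed the filter only through the heterozygous arrays, with every null and wild-type level below the 30th percentile. From those dim levels it rose by 1.40 ± 0.14 (adjusted p = 0.00491), and its null-minus-heterozygous difference was -1.27 (adjusted p = 0.00536). Cd53, a leukocyte tetraspanin, was at 5.09, 5.09 and 4.997 on the null arrays, 6.21 and 6.91 on the heterozygous arrays and 4.84 and 4.84 on the wild-type arrays. It rose 3.30-fold (1.72 ± 0.21, adjusted p = 0.00864), and null minus heterozygous was -1.50 (adjusted p = 0.0113). Both wild-type arrays held the identical value of 4.84, which was the 30th percentile of wild-type replicate 1. The size of the rise of Cd53 is therefore uncertain.

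Cd52, a small glycoprotein of the leukocyte surface, differed by 2.13 ± 0.38 between heterozygous and wild type (adjusted p = 0.0216), from a wild-type level below the 30th percentile on both arrays, so the size is uncertain. It was at 4.54, 5.78 and 4.71 on the null arrays, 6.85 and 6.58 on the heterozygous arrays and 4.72 and 4.46 on the wild-type arrays, with null replicate 2 apart from the other null arrays. Laptm5, a lysosomal protein of blood cells, was at 5.01, 5.52 and 5.36 on the null arrays, 6.49 and 7.09 on the heterozygous arrays and 5.49 and 5.43 on the wild-type arrays. Its brightest probe set rose by 1.33 ± 0.23 (adjusted p = 0.0194), while its 2 other probe sets gave 0.41 and 0.41. In null minus heterozygous the brightest gave -1.50 and the others -0.07 and -0.17. In null minus wild type the brightest gave -0.17 and the others 0.34 and 0.24. The lower level of Laptm5 in null tumours thus rests on its brightest probe set.

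The other general leukocyte genes did not pass. Coro1a, an actin regulator of leukocytes, had a difference of 0.35 (adjusted p = 0.42), Plek, the protein kinase C substrate pleckstrin, 0.41 (adjusted p = 0.292), and Cd83, an activation antigen, 0.03 (adjusted p = 0.932). Rac2, the small GTPase of the phagocyte oxidase, was at 5.10, 5.04 and 5.04 on the null arrays, 4.86 and 4.65 on the heterozygous arrays and 5.04 and 5.04 on the wild-type arrays. Both heterozygous arrays were its lowest, with a difference of -0.29 (adjusted p = 0.137), and 4 arrays held the same value. Lcp1, Lcp2, Cd48, Cd86 and Vav1 were below the filter. Of these, Cd48, a ligand of the SLAM family, was at 3.54, 3.29 and 3.54 on the null arrays, 3.69 and 4.09 on the heterozygous arrays and 3.45 and 3.54 on the wild-type arrays, and Cd86, a co-stimulatory ligand, was at 3.92, 3.98 and 3.87 on the null arrays, 4.01 and 4.02 on the heterozygous arrays and 3.66 and 3.74 on the wild-type arrays.

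In null against wild type, where 0 genes passed, the intervals differed in width between genes. For Ptprc the difference was 0.13 (95% interval -0.16 to 0.43), for Cx3cr1 0.13 (-0.14 to 0.41), for Csf1r 0.06 (-0.40 to 0.51) and for Cd53 0.22 (-0.23 to 0.68). Each of these intervals ends below the rise that the same gene had in heterozygous against wild type. For Ptprc, however, every null and wild-type level was dim, so its interval cannot bound a difference between null and wild type. The null and wild-type levels of Cd53 lay close to the dim range, so its interval is a weak bound. For Ly86 the difference was 0.48 (-0.56 to 1.53), for Tyrobp 0.56 (-0.27 to 1.39) and for Lyz2 0.40 (-0.90 to 1.69), so that differences of more than 1 log2 unit lie within those intervals. Medians by role were 0.31 for resident microglia, 0.13 for shared microglia and macrophage genes, 0.21 for monocyte and recruited macrophage genes and 0.00 for general leukocyte genes, against -0.00 over all genes tested.

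Of the 41 genes, 12 had more than 1 probe set. In heterozygous against wild type the probe sets of Csf1r gave 1.29, 0.68 and 0.57 and those of C1qb 1.33, 2.31 and 1.81. Lcp1, a leukocyte plastin, gave -0.03 with its brightest probe set and 0.84 with the other, both dim. Probe sets of 1 gene thus differed in the size of the difference, and among those past the filter none was negative.

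**Figure D4:**
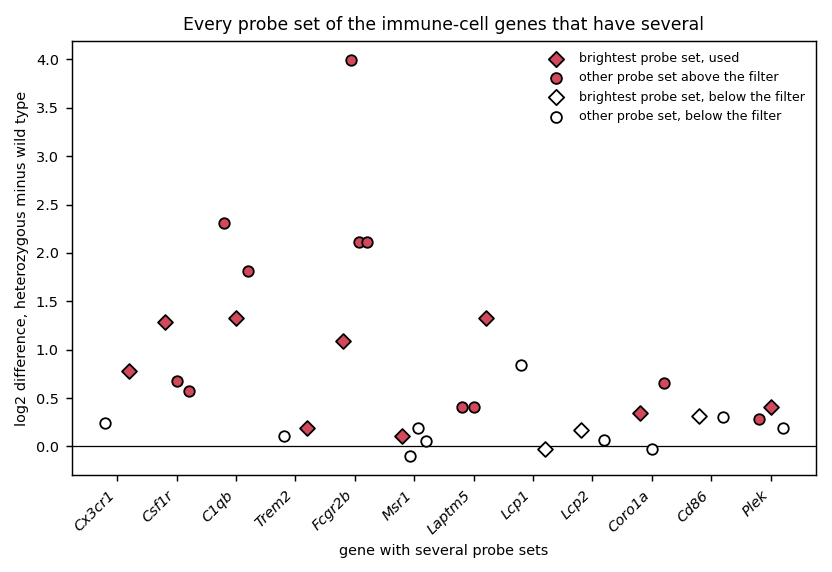
Heterozygous-minus-wild-type log2 difference of every probe set of the 12 genes with more than 1 probe set. Diamonds are the brightest probe sets, circles the others, and open symbols did not pass the filter. The probe sets of Fcgr2b run from 1.09 to 3.99 and those of Laptm5 from 0.41 to 1.33.

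The genes also differed between arrays of 1 genotype. Wild-type replicate 1 was above wild-type replicate 2 for 21 of the 31 tested genes (67.7%, against 47% of all genes tested). Null replicate 2 was the highest null array for 16 of 31 (51.6%, against 33%), and both orders held for 14 of 31 (45.2%, against 21.1%). Among the 16 shared microglia and macrophage genes both held for 11, and among the 4 genes of resident microglia for 0. Heterozygous replicate 2 was above heterozygous replicate 1 for 24 of 31 (77.4%, against 55.1%). Wild-type replicate 1 and null replicate 2 are the arrays with Y-linked transcripts and without high Xist, and the part of sex in this order was not tested.

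Other genes of the same pathways were read from further lists. The lists were chosen with earlier results of these data known, and most of their genes were dim. In heterozygous against wild type, 0 of 3 tested genes of a second microglia list passed, 1 of 6 genes of phagocyte signalling rose, and 1 of 9 further leukocyte genes rose, with 0 falls in each. Over all genes tested 4.2% rose and 5.95% fell in that comparison, so single calls in lists of this size are near the background and nothing is read from the counts. Cyba, a subunit of the phagocyte oxidase, rose by 0.97 (adjusted p = 0.0178), with 4.85, 4.74 and 5.01 on the null arrays, 5.61 and 6.02 on the heterozygous arrays and 4.85 and 4.83 on the wild-type arrays. Irf8, a transcription factor of microglia and macrophages that works with PU.1, rose by 0.91 (adjusted p = 0.0413), with 6.95, 7.60 and 7.33 on the null arrays, 7.79 and 7.62 on the heterozygous arrays and 6.70 and 6.89 on the wild-type arrays. The heterozygous arrays were highest for both genes, and Irf8 on null arrays lay between the groups. Sall1, a transcription factor that microglia need for their identity and that neural progenitors also use, had a difference of -0.24 (adjusted p = 0.275).

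Of the genes of monocyte-derived cells, 2 of 6 rose, Tgfbi, a matrix protein, by 1.78 (adjusted p = 0.0231) and Hp, haptoglobin, by 0.78 (adjusted p = 0.0281). Of the genes of border macrophages, 1 of 4 rose, Ms4a6d, by 1.88 (adjusted p = 0.00971), with 3.28, 3.88 and 3.49 on the null arrays, 5.02 and 5.38 on the heterozygous arrays and 3.56 and 3.09 on the wild-type arrays. Hp and Ms4a6d passed the filter only through the heterozygous arrays, with all null and wild-type levels below the 30th percentile. In the list of disease-associated microglia 1 of 9 rose, Fabp5, a fatty acid binding protein that neural cells also make, by 0.83 (adjusted p = 0.024). Of ligands and receptors that act on these cells 1 of 9 rose, Tgfbr2, a receptor for TGF-beta, by 1.11 (adjusted p = 0.0283). These counts too stand against 4.2% of all genes that rose, and with so few genes a list they show nothing particular to a list. Csf1, the ligand of CSF1R, did not pass (0.61, adjusted p = 0.111), at 8.45, 8.80 and 8.33 on the null arrays, 9.05 and 9.49 on the heterozygous arrays and 8.80 and 8.52 on the wild-type arrays. In null against wild type 0 genes of these lists passed. In null against heterozygous, 1 of 6 phagocyte signalling genes was lower, Cyba (-0.95, adjusted p = 0.0162). So were 1 of 4 border macrophage genes, Ms4a6d (-1.65, adjusted p = 0.0118), and 2 of 9 disease-associated microglia genes. These 2 were Fabp5 (-0.88, adjusted p = 0.0182) and the lipoprotein lipase gene Lpl (-1.78, adjusted p = 0.0282). The rest of these lists held no call, 3.96% of all genes tested were lower, and nothing is read from such small counts.

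Markers of other blood cells were mostly dim. Of T, B and NK cell genes 3 of 13 on the array were tested, of granulocyte genes 4 of 10 and of dendritic cell genes 3 of 7. Of red blood cell genes 0 of 2 were tested. In any comparison 0 of these genes passed. Over all genes tested, 4.2% rose and 5.95% fell in heterozygous against wild type, so 0 calls among so few genes are near the background. Summed over its 13 genes on the linear scale, the T, B and NK list was at 320, 292 and 289 on the null arrays, 281 and 284 on the heterozygous arrays and 283 and 278 on the wild-type arrays. S100a8, a granulocyte calcium-binding protein, was at 3.82, 5.76 and 5.82 on the null arrays, 4.17 and 4.25 on the heterozygous arrays and 4.10 and 3.99 on the wild-type arrays, so null replicates 2 and 3 were high. Of 8 genes of endothelium and pericytes 0 passed, a count near the same background, and nothing is read from it.

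Some neural genes also differed in heterozygous against wild type. Of the 9 oligodendrocyte progenitor genes, 4 fell and 1 rose, against 5.95% and 4.2% of all genes tested. Olig2 differed by -0.67 (adjusted p = 0.0251), Ptprz1 by -0.61 (adjusted p = 0.0334), Cspg5 by -0.84 (adjusted p = 0.034) and Pdgfra, the receptor gene of the PDGF family, by -0.65 (adjusted p = 0.0368). Nes, named after its value was seen, was the gene that rose, by 0.89. Summed on the linear scale, these 9 genes were at 50100, 53145 and 51208 on the null arrays, 34918 and 42903 on the heterozygous arrays and 56156 and 56140 on the wild-type arrays. The summed level of the 41 immune-cell genes was 3806, 4887 and 4426 on the null arrays, 5589 and 7304 on the heterozygous arrays and 3987 and 4215 on the wild-type arrays. The heterozygous arrays were thus lowest for the progenitor sum and highest for the immune-cell sum. Apoe, the brightest of the 41 genes at 10.45 to 11.12 on the log2 scale, had overlapping groups. It weighs most on the immune-cell sum and is also made by astrocytes.

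Of 10 astrocyte genes, 2 rose (4.2% of all genes did), Gfap, the astrocyte intermediate filament, by 1.49 (adjusted p = 0.00864) and Aldh1l1, a folate enzyme, by 1.46 (adjusted p = 0.0175), and 1 fell, S100b, a calcium-binding protein, with a difference of -0.76 (adjusted p = 0.0331), where 5.95% of all genes fell. Aldh1l1 passed the filter only through the heterozygous arrays, from null and wild-type levels below the 30th percentile. Of 5 neuronal genes 2 fell, Snap25, a synaptic vesicle fusion protein, with a difference of -0.84 (adjusted p = 0.0131), and Gad1, an enzyme of GABA synthesis, with -1.24 (adjusted p = 0.0146), again against 5.95% of all genes. The part of these shifts in the immune-cell result was not tested.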

How the data were processed

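RNA (75 ng per array, 3′-primed) of 7 sorted tumour samples was measured on Affymetrix arrays. The deposited values are log2 levels; RMA and Partek 6.6 are named in the submitters' processing notes. The table held 22690 probe sets, 64 of them controls. Of the others, 20380 named 1 gene, 691 several and 1555 were unnamed here. Each of 12393 genes was represented by its brightest probe set over the 7 arrays, and 9243 lay above the 30th percentile on at least 2 arrays and were tested. A linear model with 1 mean per genotype was run over the 7 arrays in limma 3.58.1 under R 4.3.3 (4 residual degrees of freedom, 3.07 prior), with two-sided moderated tests and Benjamini-Hochberg adjustment over all genes tested at 0.05. Precision is limited by how few arrays there are. The model was checked and tested on simulated data. The 41 genes and the other lists were chosen with earlier results of these data known. All 41 may be named, and of each other list up to 4 tested genes of smallest p in heterozygous against wild type. Alternatives changed the filter, probe set, scaling, moderation, covariates and arrays used. RMA sets the arrays to 1 distribution, so a shift of all genes cannot be seen. Promoters came from RefSeq (GRCm38.p6). Scanner files were not used here.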

Additional observations from a re-analysis of the deposited data

How the results depend on the processing

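All 620 refits of single called genes kept their direction, and 365 stayed past the threshold. The genes refitted were those already called, and their groups did not overlap. Leaving out an array could therefore not reverse a direction, so the kept direction is no sign of stability. Ptprc passed in 17 of 19 settings for heterozygous against wild type and C1qa in 6 of 20. Ptprc passed the filter only through the heterozygous arrays, from dim null and wild-type levels, so its number is no sign of stability. The count of 19 genes higher in heterozygous than in wild-type tumours stood beside 938 of 9243 genes called in either direction. It was 8 with a 50th-percentile filter, which leaves fewer genes to call (879 of 7149 genes). It was 1 without moderation (97 of 9243 genes), 8 with the 3′-5′ control signal as a covariate (372) and 5 with only the 2 groups in the fit (172). Without the 2 arrays that carry both Xist and Y-linked transcripts, 1 heterozygous array was left, and the median difference was 1.43. The count was 12 without null replicate 1 (716 genes), 20 without null replicate 2 (763) and 11 without null replicate 3 (679). Without a wild-type or heterozygous array, 1 array was left in that group. Calls were then fewer, also over all genes tested, and the median difference was 0.89 to 1.43. A lone array is then assumed to vary like the other groups. The 13 genes lower in null than in heterozygous stood beside 828 of 9243 genes called in either direction. They became 5 with the 50th-percentile filter (846 of 7149 genes), 8 with the covariate (471) and 8 with only the 2 groups (355). Without moderation they became 0 (2 of 9243 genes), with 19 at an unadjusted p under 0.05. Without null replicate 1, 2 or 3 they became 4 (290), 16 (732) and 4 (205). Without the 2 arrays that carry both Xist and Y-linked transcripts the median difference was -1.13. The 11 genes of the F test stood beside 522 of 9243 genes. They became 3 with the stricter filter (537 of 7149 genes) and 4 with the covariate (217). Without moderation they became 0 (21 genes), with 17 at an unadjusted p under 0.05. Without null replicate 1, 2 or 3 they became 5 (266), 13 (470) and 4 (229). Without a filter the median differences were 0.78 in heterozygous against wild type and -0.49 in null against heterozygous, since dim genes enter. The count of 0 in null against wild type held in every setting run. The labels do not say that replicate numbers pair samples, and deviations of same-numbered arrays correlated between -0.41 and 0.11. With the replicate block the counts were 4 in heterozygous against wild type (217 of 9243 genes) and 0 in null against heterozygous (25 genes). In the F test the count was 0 (29 genes). At an unadjusted p under 0.05 there were 18 in null against heterozygous and 20 in the F test. The cause of these changes was not tested.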
